A study of Mus musculus with 2 samples.

Results

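Genes of the Wnt pathway were compared between 2 mouse epithelial cell lines, named Mle29c and Mlesico in the labels, with 1 expression array of each line. The genes were chosen by symbol from the annotation of the array: every probe set with a single gene symbol of the Wnt, Fzd, Dkk or Sfrp families, plus 26 single genes of the pathway. A probe set is a group of short probes that reads 1 transcript. The choice gave 133 of the 45101 probe sets of the array, which stand for 63 of its 18194 singly named genes. Of the 26 single genes 25 were found, since Tcf7 has no singly named probe set among the values used. One match, Fzd10os, is a transcript of the strand opposite the frizzled gene Fzd10. Both lines grew in DMEM with fetal bovine serum, and the labels name no treatment. The study concerns the microRNA miR-29c in fibrosis of the lung. The labels do not say whether Mle29c cells hold more or less of it than Mlesico cells, how either line was made, or whether it is a clone.

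Wnt proteins are secreted signals that carry a lipid. In the branch that runs through beta-catenin, a Wnt protein binds a frizzled receptor together with Lrp5 or Lrp6. The complex of Axin, Apc and Gsk3b that marks beta-catenin for breakdown is then restrained, and beta-catenin joins Tcf and Lef factors on DNA. Secreted proteins such as Dkk1, Wif1 and the Sfrp family keep ligands or receptors from meeting, while Rnf43 and Znrf3 remove frizzled receptors from the cell surface. In the lung, Wnt signals act in the branching of the airways and in maintenance and repair of the alveolar epithelium. In human osteoblasts, miR-29 family members have been reported to target the inhibitors DKK1 and SFRP2. The mature miR-29 sequences are shown because the study concerns miR-29c and all 3 family members carry the same seed (bases 2 to 8, in capitals). They are RefSeq's, with build GRCm38.p6, and miR-29c-3p lies at chr1:195037600-195037621 on the plus strand.
mmu-miR-29c-3p: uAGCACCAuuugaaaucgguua
mmu-miR-29a-3p: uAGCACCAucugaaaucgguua
mmu-miR-29b-3p: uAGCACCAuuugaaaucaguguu

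Each deposited value is a log signal, taken here as log2, that the authors set relative to the midpoint of the 2 arrays. The values of a probe set therefore mirror each other, and their difference, Mle29c minus Mlesico, is the log2 ratio given throughout. Levels can no longer be read from such values, but the rounding of the numbers keeps a trace of them. From that trace probe sets were put in a high class (mean log2 signal read as at least 8), a middle class (at least 4) or a low class. Genes with a high or middle probe set are called measured, and the value of a gene is the median over those. No replicate arrays exist in the data used, so no difference has a replicate check, no test was possible, and the number of arrays limits the precision. The only error that can be given is technical: measured probe sets of the same gene had a pooled SD of 0.59 in log2 ratio over 30 members, against 0.64 over the 6958 genes with 2 or more.

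The label of an epithelial line was set against marker genes. Of 10 epithelial markers 8 were measured, with a median log2 ratio of -0.14, and they included Cdh1 at 1.46 and Krt7 at -1.20. The class does not set cell types apart, since 7 of 8 mesenchymal, 5 of 5 endothelial and 5 of 6 immune markers were measured as well, with log2 ratios from -3.41 to 2.88. Of 8 markers of alveolar type 2 cells 7 were measured, all with ratios above 0 and a median of 1.66. The part of these marker differences in the values of the Wnt genes was not tested.

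Of the 63 member genes 55 were measured. At least 2-fold higher in Mle29c were 7 of them, namely the ligand genes Wnt3 and Wnt5a, the receptor genes Fzd8 and Fzd5, the inhibitor genes Wif1 and Sfrp5, and the transcription factor gene Tcf7l2. The inhibitor gene Notum and the ligand gene Wnt1 were at least 2-fold lower. Of all 14919 measured genes, 8.64% were at least 2-fold higher and 7.35% at least 2-fold lower, against 12.7% and 3.64% of the members, a difference of few genes. At 4-fold, 3 members were higher (Wnt3, Fzd8 and Wif1) and 0 lower, where 2.84% and 2.45% of all measured genes were. At 1.5-fold, 12 members were higher and 6 lower, where 16.8% and 15.3% of all measured genes were. The remaining 37 members (67.3%) lay within 1.5-fold, against 67.9% of all measured genes. The median log2 ratio was 0.11 over the members and 0.00 over all measured genes, with 30 members above 0 and 25 below.

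The members next to the 2-fold threshold were Tcf7l2, past it at 1.05, and Znrf3, inside it at -0.91. Of the 9 genes past 2-fold, 6 rested on 1 measured probe set. In 4 of the 9, Wnt3, Wnt5a, Wif1 and Wnt1, the class came from a less certain reading of the rounding, and in Fzd8, Sfrp5, Tcf7l2 and Notum it came from the more certain one.

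**Figure D1:**
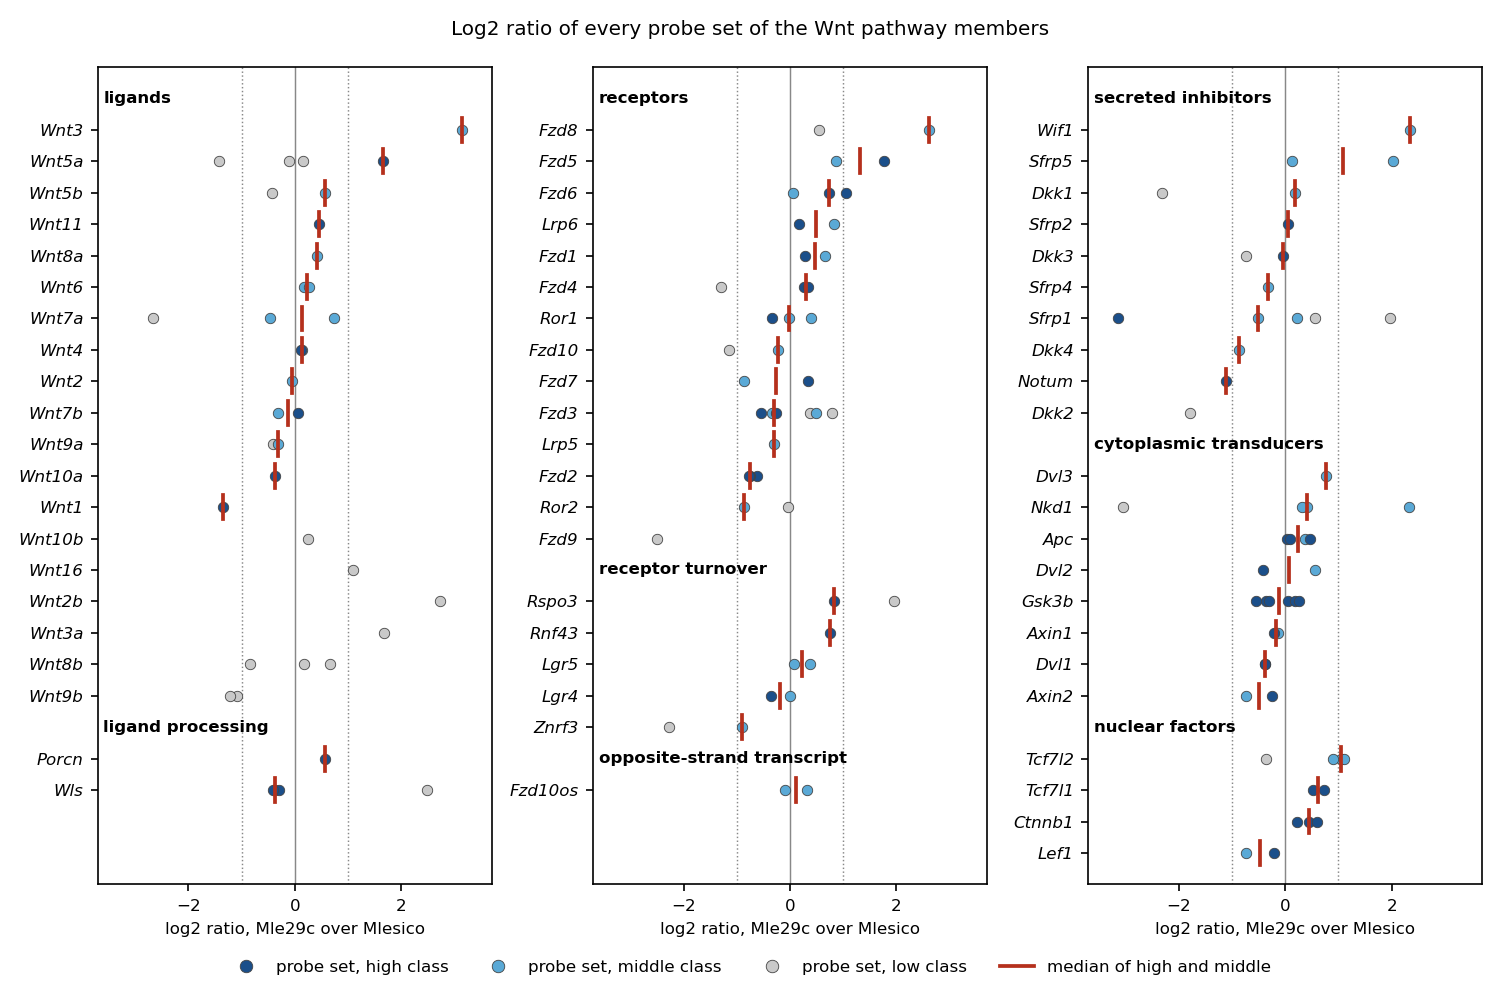
Log2 ratio of Mle29c over Mlesico for each of the 133 probe sets, 1 line per gene, grouped by role. Point colour gives the level class, the red bar is the median of high and middle probe sets, and dotted lines mark 2-fold. Most red bars lie inside the dotted lines, while single probe sets of Nkd1 (-3.04 and 2.33) and Sfrp1 (-3.14 and 1.97) lie far out on both sides.

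All 19 Wnt ligand genes found on the array are accounted for here, and 13 of them were measured, 2 at least 2-fold higher and 1 at least 2-fold lower. Wnt3, a ligand of the beta-catenin branch, had the highest ratio of the members. Its single probe set had a centred log2 signal of 1.57 in Mle29c and -1.57 in Mlesico, a log2 ratio of 3.14 or 8.82-fold. A larger ratio in either direction was found for 1.99% of all measured genes. The identifier of this probe set carries the _x_ mark, given to probes that may also bind other transcripts. Wnt1, another ligand of that branch, had -0.67 in Mle29c and 0.67 in Mlesico in its single probe set, a log2 ratio of -1.35. Wnt5a, the best known ligand of signalling outside beta-catenin, had 0.83 in Mle29c and -0.83 in Mlesico in its measured probe set, a log2 ratio of 1.66. Its other 3 probe sets were in the low class and lay apart from that value, with log2 ratios of 0.16, -0.11 and -1.43. The median over all 4 was 0.02, so the call for Wnt5a rests on 1 probe set.

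The 10 other measured ligands stayed inside 2-fold. Wnt7b, made by airway and alveolar epithelium, had -0.06 in Mle29c and 0.06 in Mlesico, with log2 ratios of -0.32 and 0.06 in its 2 probe sets. Wnt2, a ligand of lung mesenchyme, stood at -0.05, and Wnt11 at 0.45. The rest were Wnt5b at 0.56, Wnt8a at 0.42, Wnt6 at 0.22, Wnt4 at 0.13, Wnt9a at -0.32 and Wnt10a at -0.38. Wnt7a, with a median of 0.14, was one of the genes with probe sets on both sides of 0, at 0.74 and -0.47. The 6 unmeasured ligands were Wnt2b, Wnt3a, Wnt8b, Wnt9b, Wnt10b and Wnt16. Their medians over low-class probe sets ran from -1.16 for Wnt9b to 2.72 for Wnt2b, a width that is usual for that class, as the shares by class further on show.

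Several Wnt genes lie side by side on a chromosome, in 4 pairs with no other protein-coding gene starting between them in RefSeq's GRCm38.p6 annotation. In the only pair with both genes measured, on chromosome 1, Wnt6 stood at 0.22 and Wnt10a at -0.38. On chromosome 11, Wnt3 stood at 3.14, while the low-class probe sets of its neighbour Wnt9b had a median of -1.16. On chromosome 15, Wnt1 stood at -1.35 beside Wnt10b with a low-class probe set at 0.25. The last pair, again on chromosome 11, was Wnt9a at -0.32 and Wnt3a with a low-class probe set at 1.67.

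Both genes that prepare ligands for release were measured, and neither was past 2-fold. Porcn, the enzyme that adds the lipid, had 0.29 in Mle29c and -0.29 in Mlesico, a log2 ratio of 0.58. Wls, the carrier that takes Wnt proteins to the surface, had -0.19 in Mle29c and 0.19 in Mlesico. Its 3 high-class probe sets lay close together, with log2 ratios from -0.42 to -0.30, apart from a low-class one at 2.48.

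Of the 10 frizzled receptor genes 9 were measured, with 2 at least 2-fold higher and 0 at least 2-fold lower. Fzd8 had 1.30 in Mle29c and -1.30 in Mlesico, a log2 ratio of 2.61 or 6.10-fold. The rounding puts its log2 signal at 5.30 or more in Mle29c and 2.70 or more in Mlesico. Its second probe set, in the low class, was at 0.55. Fzd5, a receptor of many epithelia, had 0.66 in Mle29c and -0.66 in Mlesico, a log2 ratio of 1.32, and both of its probe sets lay above 0, at 0.87 and 1.77. Fzd6, a receptor known for planar polarity, had 0.37 in Mle29c and -0.37 in Mlesico, a log2 ratio of 0.73, with 1 of its 3 probe sets past 2-fold at 1.06. Fzd1, a receptor of the beta-catenin branch, had 0.24 in Mle29c and -0.24 in Mlesico.

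The other frizzled genes stayed inside 2-fold where measured. Fzd2 had log2 ratios of -0.63, -0.75 and -0.77 in its 3 high-class probe sets. Fzd4, known from blood vessels of the retina, stood at 0.30. Fzd3, Fzd7 and Fzd10 stood at -0.30, -0.27 and -0.22, and Fzd7 had probe sets on both sides of 0, at 0.34 and -0.87. The opposite-strand transcript Fzd10os stood at 0.11. The only probe set of Fzd9, in the low class, was at -2.51.

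The co-receptors stayed within 2-fold. Lrp6 had 0.25 in Mle29c and -0.25 in Mlesico, a log2 ratio of 0.49, and Lrp5 had -0.15 in Mle29c and 0.15 in Mlesico, a log2 ratio of -0.31. The kinase-like receptors of Wnt5a stood at -0.03 for Ror1, with probe sets from -0.34 to 0.39, and at -0.86 for Ror2, from 1 measured probe set.

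None of the 5 genes of receptor turnover was past 2-fold, and the ubiquitin ligases that remove frizzled receptors lay on opposite sides of 0. Rnf43 had 0.38 in Mle29c and -0.38 in Mlesico, a log2 ratio of 0.76, and Znrf3 had -0.45 in Mle29c and 0.45 in Mlesico, a log2 ratio of -0.91. Each of these rested on 1 measured probe set. Rspo3, a secreted protein that keeps both enzymes from acting, stood at 0.83. Its receptors Lgr5 and Lgr4 stood at 0.22 and -0.18.

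**Figure D2:**
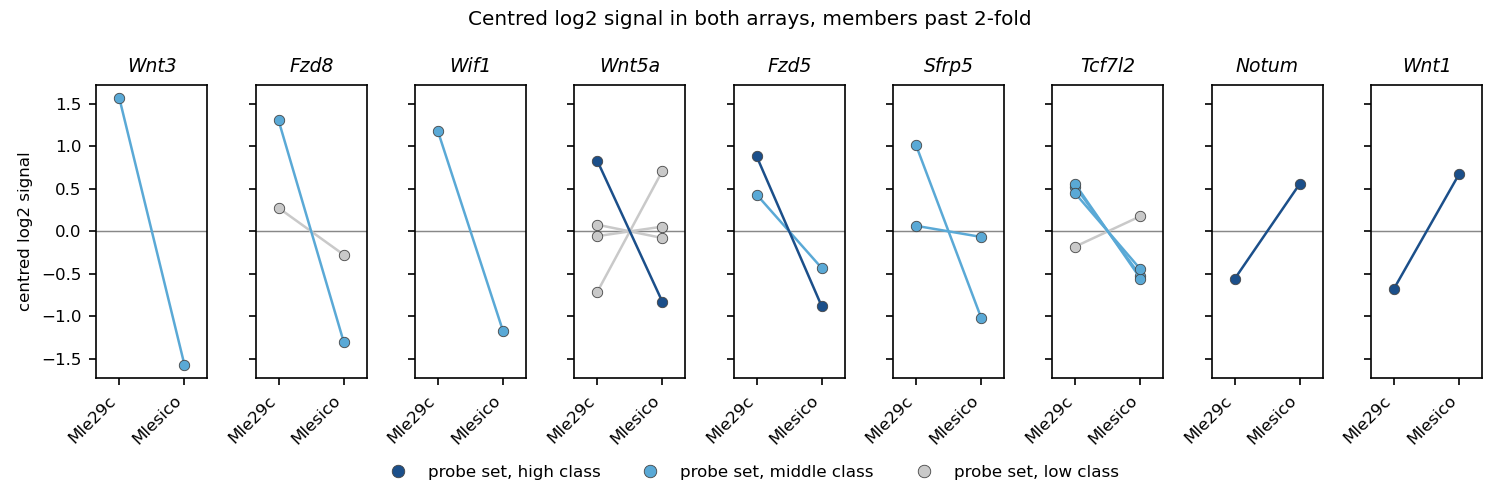
Centred log2 signal of each probe set in the Mle29c array (left in each panel) and the Mlesico array (right), for the 9 members past 2-fold, coloured by level class. The values mirror each other because each probe set was centred by the authors, and some low-class probe sets of Wnt5a and the one of Tcf7l2 slope the other way from the measured ones.

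Of 10 secreted inhibitor genes 9 were measured, 2 at least 2-fold higher and 1 at least 2-fold lower. Wif1, which binds Wnt proteins directly, had 1.18 in Mle29c and -1.18 in Mlesico in its single probe set, a log2 ratio of 2.35. Sfrp5, a decoy with a frizzled-like domain, had 0.54 in Mle29c and -0.54 in Mlesico, a log2 ratio of 1.08. Its 2 probe sets differed by more than the spread usual between probe sets, at 2.03 and 0.13. Notum, an enzyme that removes the lipid from Wnt proteins, had -0.56 in Mle29c and 0.56 in Mlesico, a log2 ratio of -1.12. The rounding puts the log2 signal of Notum at 7.44 or more in Mle29c and 8.56 or more in Mlesico.

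Sfrp1, another decoy of the Sfrp family, had the least even reading. Its high-class probe set had -1.57 in Mle29c and 1.57 in Mlesico, a log2 ratio of -3.14. The 2 middle-class probe sets had log2 ratios of -0.51 and 0.23, and the 2 low-class ones 0.56 and 1.97. The gene value was -0.51, and it became -3.14 with the high class alone and 0.23 with all 5 probe sets, so no size or direction can be given for Sfrp1.

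The mouse genes of the inhibitors named as miR-29 targets in human osteoblasts had ratios near 0, each from 1 measured probe set. Dkk1, which blocks Lrp5 and Lrp6, had 0.09 in Mle29c and -0.09 in Mlesico, a log2 ratio of 0.19, with a low-class probe set at -2.31. The median over both was -1.06, so the value for Dkk1 depends on the choice of probe set. Sfrp2 stood at 0.05. Dkk3, Sfrp4 and Dkk4 stood at -0.05, -0.33 and -0.87, and Dkk2 had a low-class probe set alone, at -1.79.

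The 8 cytoplasmic genes were all measured, by 22 probe sets, and none was past 2-fold. Gsk3b, the kinase that marks beta-catenin, had -0.06 in Mle29c and 0.06 in Mlesico over 6 high-class probe sets, whose log2 ratios ran from -0.55 to 0.25. Apc, a scaffold of the destruction complex, had 0.12 in Mle29c and -0.12 in Mlesico, with all 4 probe sets above 0 and none over 0.47. Axin1, another scaffold, had -0.09 in Mle29c and 0.09 in Mlesico.

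Axin2, a scaffold that beta-catenin itself induces, had -0.25 in Mle29c and 0.25 in Mlesico, and both probe sets lay below 0, at -0.24 and -0.74. The dishevelled genes, which pass the signal on from frizzled, did not share a direction. Dvl1 had -0.19 in Mle29c and 0.19 in Mlesico, with both log2 ratios at -0.38. Dvl2 had 0.04 in Mle29c and -0.04 in Mlesico, from probe sets at -0.43 and 0.57. Dvl3 had 0.38 in Mle29c and -0.38 in Mlesico in its single probe set, a log2 ratio of 0.77. Nkd1, which binds dishevelled and dampens the signal, had 0.21 in Mle29c and -0.21 in Mlesico. Its measured probe sets had log2 ratios of 0.32, 0.41 and 2.33, and the low-class one was at -3.04.

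Of the 4 nuclear genes 3 lay above 0. Ctnnb1, which encodes beta-catenin, had 0.23 in Mle29c and -0.23 in Mlesico, with log2 ratios of 0.22, 0.45 and 0.60 in 3 high-class probe sets. Tcf7l2, the main Tcf factor of many epithelia, had 0.52 in Mle29c and -0.52 in Mlesico, a log2 ratio of 1.05. Its 3 middle-class probe sets lay between 0.89 and 1.11, while the low-class one was at -0.36. Tcf7l1, mostly a repressor, had 0.31 in Mle29c and -0.31 in Mlesico, with probe sets at 0.52 and 0.72. Lef1, a factor that binds the same DNA sites, had -0.24 in Mle29c and 0.24 in Mlesico, with probe sets at -0.74 and -0.21.

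Members that the beta-catenin branch is known to induce were also read together, as a group put together after their values were seen. Of Axin2, Lef1, Nkd1, Notum, Rnf43, Znrf3, Lgr5 and Tcf7, 7 of 8 were measured, 3 above 0 and 4 below, with a median log2 ratio of -0.47. The group leaves out Dkk1, also known to be induced by beta-catenin, which stood at 0.19. The split and the median depend on which members were put in. Notum was the 1 gene of the group past 2-fold. Axin2, Notum, Rnf43 and Znrf3 lie on chromosome 11, where the median over all measured genes was -0.25.

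Genes of the pathway outside the choice were read from 4 lists. The shares of all measured genes at least 2-fold higher and lower, 8.64% and 7.35%, stand beside each list. Of 15 measured outer components, 2 (13.3%) were at least 2-fold higher and 2 (13.3%) at least 2-fold lower, with a median of 0.00. Sost, a secreted inhibitor that binds Lrp5 and Lrp6, stood at 4.06 and Rspo2, a relative of Rspo3, at 2.91, each from 1 measured probe set. The class of both came from the less certain reading. Low-class probe sets were at 2.39 for Sost and -0.85 for Rspo2. Gpc4, a cell-surface proteoglycan, was lower in both high-class probe sets, at -2.91 and -3.10, and Ptk7, a co-receptor of planar polarity, stood at -1.53.

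Of 37 measured cytoplasmic and nuclear components, 5 (13.5%) were at least 2-fold higher and 0 at least 2-fold lower, with a median of 0.17. Dact1, which binds dishevelled, stood at 3.82 from 1 probe set, and Tle2 at 2.25. Tle1 to Tle4 encode co-repressors that join Tcf factors, and Tle5 is a shorter relative to which that description does not extend. The Tle genes were singled out after their values were seen. All 5 stood above 0, Tle5 at 0.85 among them, in 11 of 11 measured probe sets, with 3 of the genes past 2-fold. Of all 14919 measured genes, 7522 stood above 0 and 8.64% were at least 2-fold higher. Probe sets of 1 gene read the same 2 arrays and are not separate replicates.

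Of 16 measured planar polarity genes, 2 (12.5%) were at least 2-fold higher and 1 (6.25%) at least 2-fold lower, with a median of -0.10. Celsr1, an atypical cadherin, stood at 8.84 and Daam2, a formin that binds dishevelled, at 3.90, each from 1 measured probe set. The probe set of Celsr1 had 4.42 in Mle29c and -4.42 in Mlesico, and its middle class came from the less certain reading. Its signal in Mlesico would then be weak, so the size of that ratio is uncertain. Prickle1 stood at -2.00, with probe sets from -2.95 to 0.18.

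Of 21 measured genes reported as targets of beta-catenin, 4 were at least 2-fold higher and 4 at least 2-fold lower, with a median of 0.17. Bmp4, a growth factor gene, stood at 1.68 and Ccn4, the gene of a secreted protein first described as induced by Wnt1, at 1.44 with both probe sets alike. Met, a receptor kinase gene, stood at -2.29 and Fosl1, an AP-1 factor gene, at -1.93. Among the standard targets, picked after their values were seen, Ccnd1 (cyclin D1) stood at 1.22 with 3 probe sets from 1.06 to 1.56, and Myc at 0.18.

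**Figure D3:**
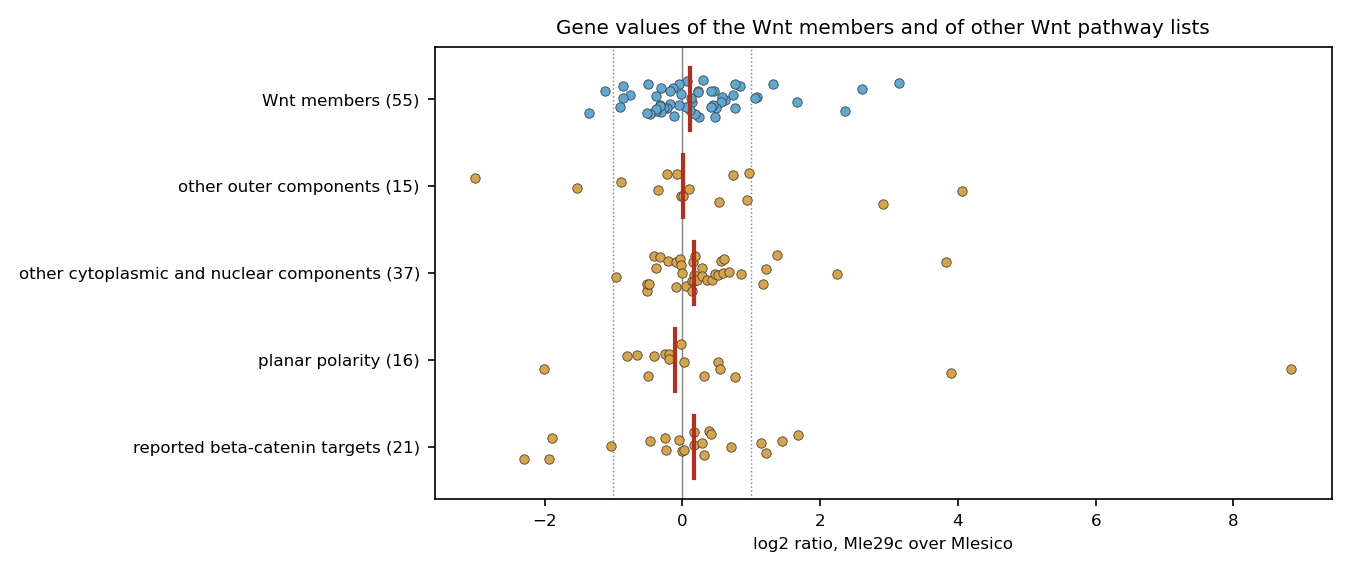
Gene log2 ratios of Mle29c over Mlesico for the 55 measured Wnt members and for 4 other lists of pathway genes, 1 point per gene, with the list median as a red bar. The medians lie between -0.10 and 0.17. Single genes such as Celsr1 at 8.84, from 1 probe set with a less certain class, lie far out.

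The width of the ratios went with the level class. In the low class, 17 of 32 member probe sets (53.1%) were past 2-fold in either direction, against 57.4% of all probe sets of that class. In the middle class they were 7 of 50 (14.0%), against 22.1%, and in the high class 6 of 51 (11.8%), against 12.9%. Of the 30 members with 2 or more measured probe sets, 21 (70.0%) had these on 1 side of 0 only, against 56.0% of the 6958 genes.

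Chromosomes differed in their median ratio, so the members were set against it. Chromosomes 6, 15 and 19 together had a median of 0.34 over 12 members, of which 8 stood above 0, against 0.32 over all 1885 measured genes there. On chromosome 15 alone, 2 of 3 members stood below 0, with a median of -0.13 against 0.36 over its genes. Chromosome 11 had a median of -0.41 over 8 members, of which 5 stood below 0, against -0.25 over 1213 genes. On the other chromosomes the median was 0.11 over 35 members and -0.01 over the genes. Some calls near the threshold depended on this. Relative to the median of their chromosome, Tcf7l2 stood at 0.78, Sfrp5 at 0.81 and Notum at -0.87, each inside 2-fold, and Rnf43, at 0.76 before, came just past it. Wnt3 stood at 3.39, Fzd8 at 2.50 and Wif1 at 2.34. The part of the chromosome in these values was not tested further.

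**Figure D4:**
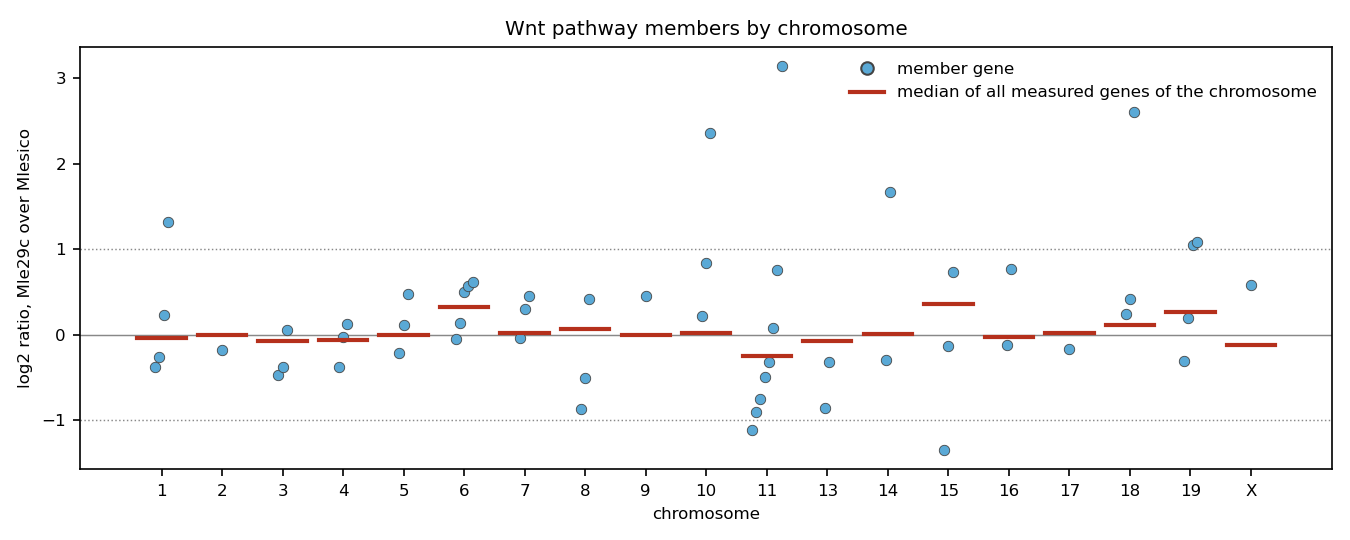
Log2 ratio of Mle29c over Mlesico for the 55 measured members by chromosome, with the median of all measured genes of that chromosome as a red bar and 2-fold as dotted lines. The bar is raised at chromosomes 6 (0.32), 15 (0.36) and 19 (0.27) and lowered at chromosome 11 (-0.25). Members on chromosome 11 spread from -1.12 to 3.14.

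Promoter windows (250 bases before to 50 after an annotated start of a gene, from RefSeq, GRCm38.p6) were found for 41 of the 63 members. Both strands were searched for the core bound by Tcf and Lef factors, spelled CTTTGAA or CTTTGAT and also CTTTGTA or CTTTGTT. The core was in a window of 7 of the 41 (17.1%), namely Dkk1, Fzd7, Lef1, Tcf7l2, Wnt3, Wnt5b and Wnt11, against 18.9% of all 27025 genes with a window. The log2 ratios of the 7 ran from -0.47 to 3.14. Among members past 2-fold the core was in a window of Wnt3 and Tcf7l2. Their windows are shown with the core in capitals, beside that of Dkk1, an inhibitor known to be induced by beta-catenin, which held the core in 2 places. Relative to the start of the window shown, the core lay 14 bases before in Tcf7l2, 18 after in Wnt3, and 117 and 98 before in Dkk1. The other of the 2 Tcf7l2 windows did not hold the core. Which of its starts these cells use, and where each lies in the gene, was not tested. The windows are chr19:55895071-55895370 on the plus strand for Tcf7l2, which has 2 windows, chr11:103773925-103774224 on the plus strand for Wnt3 and chr19:30549447-30549746 on the minus strand for Dkk1. A match describes letters and is not a binding site shown by these data.
Tcf7l2: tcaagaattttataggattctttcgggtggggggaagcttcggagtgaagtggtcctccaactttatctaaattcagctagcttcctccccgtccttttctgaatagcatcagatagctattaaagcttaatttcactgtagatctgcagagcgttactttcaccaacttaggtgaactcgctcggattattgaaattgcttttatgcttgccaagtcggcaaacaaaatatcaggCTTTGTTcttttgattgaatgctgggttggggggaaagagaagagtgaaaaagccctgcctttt
Wnt3: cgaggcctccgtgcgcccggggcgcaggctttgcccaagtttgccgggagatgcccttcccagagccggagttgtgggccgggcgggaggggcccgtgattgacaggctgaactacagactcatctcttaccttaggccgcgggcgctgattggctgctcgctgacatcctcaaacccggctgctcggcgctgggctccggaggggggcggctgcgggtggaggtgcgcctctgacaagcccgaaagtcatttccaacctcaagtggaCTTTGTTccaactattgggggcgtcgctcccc
Dkk1: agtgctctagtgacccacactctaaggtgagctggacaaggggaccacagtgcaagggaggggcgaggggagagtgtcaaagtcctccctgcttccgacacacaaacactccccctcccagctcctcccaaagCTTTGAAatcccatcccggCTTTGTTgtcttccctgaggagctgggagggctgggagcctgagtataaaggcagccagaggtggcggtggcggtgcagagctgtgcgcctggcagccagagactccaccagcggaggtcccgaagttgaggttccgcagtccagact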

How the data were processed

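One sample of each line was measured as biotin-labelled cRNA, per the labels' protocols. The submitters' processing notes name MAS5, a way to summarise probes as 1 signal, without a version. The deposited values are log signals, taken as log2: no base is stated, and with natural logs every fold would be larger. In each probe set they sum to 0 within 1e-06.

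Classes were read from single-precision rounding: from the sum of both values (54 of the 101 measured member probe sets) or else from the rounding step, which can put weaker probe sets too high. As a check, 91.2% of 114 ribosomal protein probe sets were high or middle, and 42.5% of 80 olfactory and vomeronasal receptor probe sets. The class is therefore rough. A measured gene need not be expressed, and 8.77% of the ribosomal protein probe sets fell in the low class. The code was tested on simulated data (Python 3.11.15, numpy 2.4.6, pandas 2.3.3).

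Genes were named from the platform annotation of 2016, updated by gene number through RefSeq's GRCm38.p6 table, which held all 133 member probe sets. Values per array are given for members past 2-fold and for a set list of pathway genes, other members by ratio, and genes outside the choice as the 2 largest past 2-fold per side of each list. Members and lists were chosen with earlier results of these data known.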

Additional observations from a re-analysis of the deposited data

How the results depend on the processing

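The counts past 2-fold, 7 higher and 2 lower of 55, moved with the choice of probe sets and of threshold, in part because other numbers of genes entered. They were 9 and 7 of 63 with every probe set, where the shares of all genes also grew, to 12.4% and 10.9%. They were 2 and 3 of 33 with the high class alone (all genes 7.09% and 5.83%), where Wnt3, Fzd8, Wif1, Sfrp5 and Tcf7l2 had no value. They were 4 and 2 of 49 without identifiers marked _s_, _x_ or _a_ (8.84% and 7.88%), where Wnt3, Wif1 and Notum had none. The counts were 8 and 3 with the mean over probe sets (8.65% and 7.51%), and 6 and 1 when centred within chromosomes (8.21% and 7.44%). At 1.5-fold they were 12 and 6, and at 4-fold 3 and 0. With a demand that a gene have 2 or more probe sets, each past 2-fold, they were 0 and 0. The 25 members with 1 measured probe set could not meet that demand, and no share of all genes is given for it. With classes from the sum of both values alone, an alternative chosen after seeing the data, the counts were 3 and 1 of 35 (6.88% and 6.04%). Wnt3, Wnt5a, Wif1 and Wnt1 had no value there. The median of the members ranged from 0.05 to 0.12. Some medians of roles, over few genes each, ranged more widely. Receptor turnover ran from 0.02 to 0.76 and secreted inhibitors from -0.58 to -0.05. Cytoplasmic transducers, from -0.23 to 0.21, and ligand processing, from -0.38 to 0.20, fell on both sides of 0. The median of the receptors also changed side, from -0.03 in the main reading to between 0.01 and 0.29 under the other settings.

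Among members past 2-fold, Wnt5a came to 0.02 with every probe set, Fzd5 to 0.87 with classes from the sum, and Sfrp5 and Notum to 0.81 and -0.87 when centred within chromosomes. Fzd8 fell to 1.58 with every probe set but stayed past 2-fold. Tcf7l2 came inside 2-fold under 3 settings, at 0.97 with every probe set, 0.89 without marked identifiers and 0.78 when centred within chromosomes. Members that came past 2-fold included Znrf3 (-1.59), Dkk1 (-1.06) and Rspo3 (1.39) with every probe set, Nkd1 (1.02) with the mean, Rnf43 when centred within chromosomes, and Sfrp1 under 3 settings, at -1.14 with the mean, -1.82 without marked identifiers and -3.14 with the high class alone. The cause was not tested beyond what each setting changes by construction. No paired analysis was possible because each line has 1 array.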
